A study of Mus musculus with 4 samples.

Results

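Collagen chain genes were followed through the knockdown of Nr4a3 in mouse cardiac fibroblasts. They were chosen by name, as the rows of the deposited count table whose symbol is Col, a number, the letter a and a number. The table holds 34 such genes among 13192, and all 34 were tested. They were grouped by the kind of structure their protein builds: 10 fibrillar chains, 6 basement membrane chains, 3 beaded filament chains, 6 FACIT chains (fibril-associated collagens with interrupted helices), 2 network chains, 2 multiplexins, 1 anchoring fibril chain, 3 transmembrane chains and Col26a1, which fits none of these. A further 10 mouse chain genes of the same naming scheme, Col2a1, Col6a4, Col6a5, Col6a6, Col9a1, Col9a2, Col10a1, Col22a1, Col25a1 and Col28a1, are not among the listed genes and were not analysed here.

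A collagen molecule is made of alpha chains wound around each other into a helix, and in many types different chains assemble with each other in set proportions. Type I collagen joins the products of Col1a1 and Col1a2 into the main fibril of the heart's interstitium, types III and V take part in the same fibrils, and type IV forms the sheet-like network of basement membranes. Fibroblasts are the main source of fibrillar collagen in the heart, and excess type I collagen is a hallmark of cardiac fibrosis.

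The libraries came from primary wild-type cardiac fibroblasts of neonatal mouse heart, collected at day 7 of treatment. In 2 libraries the cells carried a short hairpin RNA against Nr4a3, an orphan nuclear receptor (shNr4a3), and in 2 libraries a control hairpin with no target (shNT). Such an RNA is processed by the cell into a small RNA that lowers the transcript it matches. The titles also carry P3, with no explanation, and nothing says that the 2 libraries of a group are separate cultures, so the p-values speak only of the spread among these samples, possibly a technical one. The study asked how the knockdown aids the conversion of fibroblasts to cardiomyocyte-like cells, and the labels name no conversion factor for these libraries.

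Listed counts came to 34068241 and 35111013 in shNT and to 34246969 and 34813598 in shNr4a3. The targeted gene, Nr4a3, went from 60 and 29 counts to 4 and 8 (log2 fold change -2.98 ± 0.67, SE; adjusted p = 3.22e-04, edgeR). Of the 8 fibroblast markers that are no collagen all were listed, with a summed level of 7119 to 7314 normalised CPM in shNT and 5977 to 5983 in shNr4a3 (CPM is a count scaled to a common library size). Of these 8, Tcf21, Vim and Thy1 fell, and Postn, Pdgfra, Lum and Dcn rose. Markers of other heart cells were present too. Here a marker fell or rose if its adjusted p was under 0.05 (edgeR). By that rule 27.9% of all tested genes were lower and 27.6% higher, and the counts below are to be read against these shares. The summed level of 12 epicardial and mesothelial markers was 802 to 820 normalised CPM in shNT against 262 to 263 in shNr4a3, and 11 of the 12 fell. That of 10 endothelial markers was 352 to 369 against 175 to 183, with 8 lower. That of 7 smooth muscle and pericyte markers was 3970 to 4204 against 3586 to 3613, with 5 lower and 1 higher. Most of this sum was Acta2, which had 2782 to 2907 normalised CPM in any library and did not pass. Of 5 Schwann and glial markers 3 fell, from a sum of 6.07 to 7.91 in shNT to 2.39 to 2.84 in shNr4a3. The sum over 5 tested macrophage and leukocyte markers and 1 listed but untested one was 60.7 to 61.6 in shNT and 99.3 to 99.97 in shNr4a3; Lyz2 rose and 3 of the 5 fell. The sum of 6 cardiomyocyte markers was 1003 to 1059 against 481 to 506, nearly all of it Tnnt2, which fell; Myh6 had 8 to 32 counts in any library. In bulk RNA, fewer cells of a type and less RNA per cell cannot be told apart, and the part of these cells in the collagen results below was not tested.

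More collagen chain genes fell than rose. At an adjusted p under 0.05 (edgeR's quasi-likelihood test on the counts, Benjamini-Hochberg over all 13160 tested genes), 18 of 34 chains were lower in shNr4a3, 4 were higher and 12 did not pass. Of all tested genes 27.9% were lower and 27.6% higher, 55.5% together, so the share of chains called in either direction, 64.7%, was near that background while the share that fell, 52.9%, was above it. The median log2 fold change was -0.49 over the chains and 0.00 over all tested genes. With a log2 fold change of at least 1 in size, 9 of the 34 chains fell and 2 of the 34 rose, against 8.13% and 3.39% of all tested genes. The 2 that rose are too few to set apart from their background. In 30 of the 34 chains the groups did not overlap, and the same held for 77.2% of all tested genes. With library totals as the only scaling, the median of all genes moved up by 0.113 on the log2 scale and changed the split of called genes from 49.7% to 62.4% higher; 6 chains were then higher and 17 lower.

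**Figure D1:**
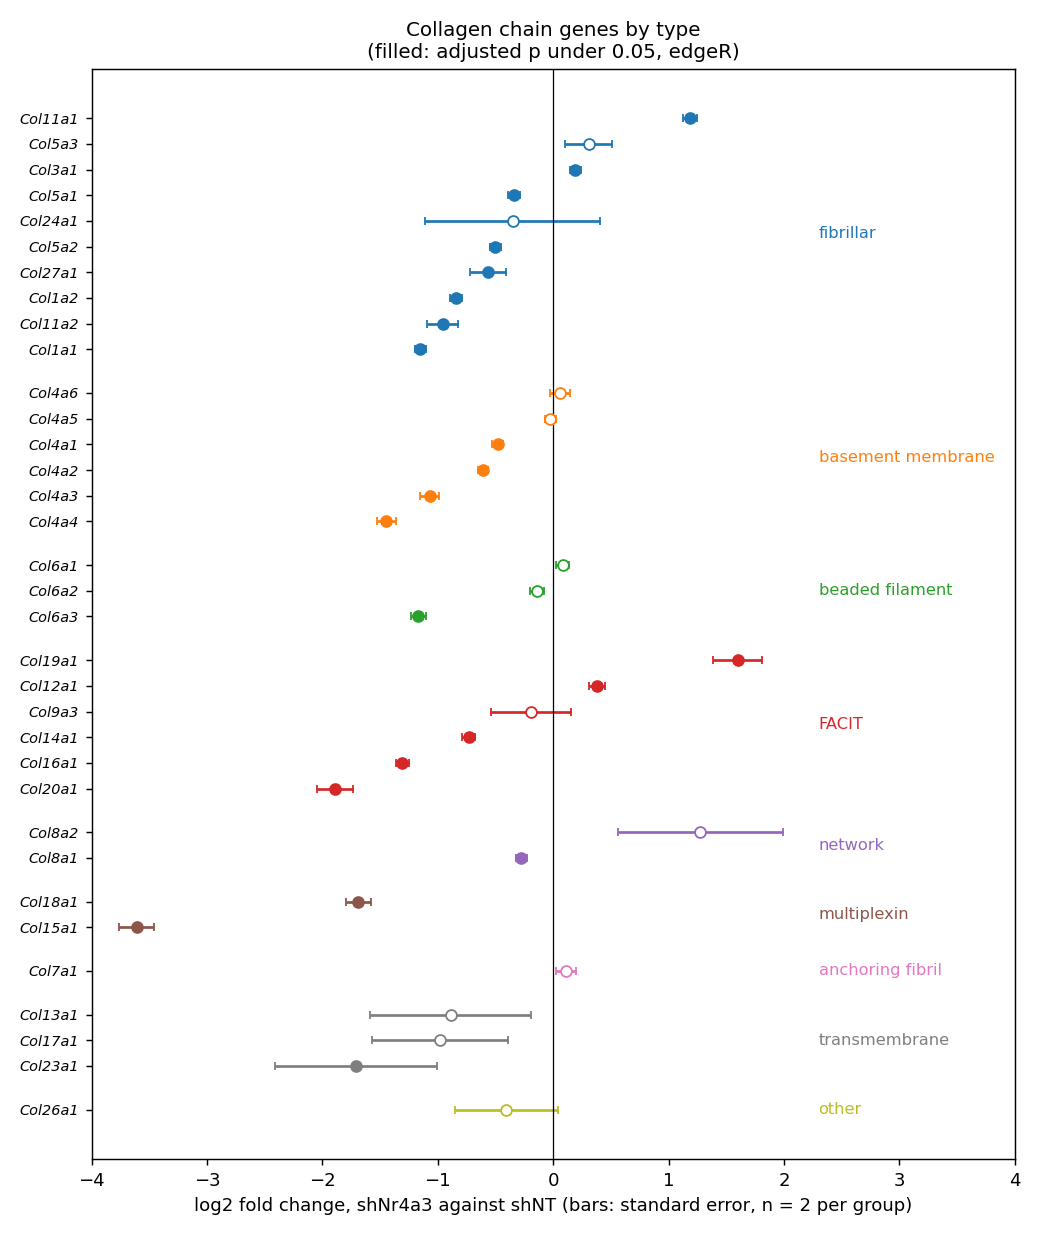
Log2 fold change of each of the 34 collagen chain genes (x axis, shNr4a3 against shNT, bars are the standard error, n = 2 per group), grouped by type on the y axis; filled points passed at an adjusted p under 0.05 (edgeR). Of the filled points, 18 lie left of 0 and 4 right of it, and Col15a1 lies farthest out at -3.61.

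Collagen genes together took 3.97% and 3.82% of the listed counts in shNT and 2.92% and 2.94% in shNr4a3. Both knockdown libraries lay below both controls, a log2 difference of -0.41 between these shares of raw counts. Summed as normalised CPM, the scaling behind the fold changes of single chains, the difference was -0.52. An exact two-sided permutation test over 2 against 2 libraries cannot give less than p = 0.333, which it gave here. The transcripts were dominated by a few chains. Col4a1 alone held 33.8% of collagen counts in shNT replicate 1 and 34.2% in shNr4a3 replicate 1, and Col4a2 21.2% and 19.8%. The basement membrane chains together held 57.8% and 56.9% of collagen counts in shNT and 57.7% and 58.3% in shNr4a3, ranges that overlap. The fibrillar chains held 34.9% and 35.4% in shNT and 34.03% and 33.7% in shNr4a3. Without the type IV chains, the collagen share was 1.67% and 1.65% in shNT and 1.23% and 1.23% in shNr4a3.

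**Figure D2:**
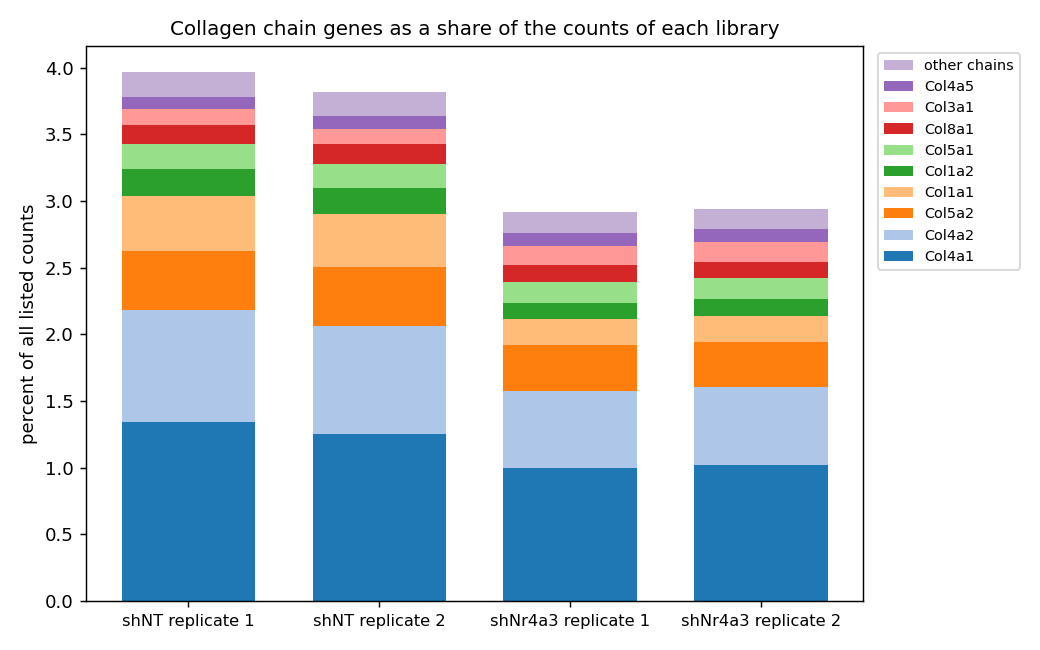
Share of all listed counts (y axis, percent) taken by collagen chain genes in each library (x axis), stacked by chain, with the 25 chains outside the 9 named ones summed as other chains. The shNT bars reach 3.97% and 3.82% and the shNr4a3 bars 2.92% and 2.94%, and Col4a1 is the largest piece of each.

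The chains of type I, the main fibril collagen, fell, while those of type III and type XI did not all follow. Col1a1, which encodes the alpha 1 chain (ENSMUSG00000001506.10, GRCm38 chromosome 11, 94936224 to 94953042), was counted 139553 and 140224 times in shNT, and 66705 and 69186 times in shNr4a3. The groups were far apart, at -1.15 ± 0.05 on the log2 scale (fold change with its SE, n = 2 per group; adjusted p = 3.15e-19, edgeR), a 2.22-fold lower level. Col1a2, the alpha 2 chain of the same molecule, went from 69093 and 69023 counts to 40988 and 42170, a fall of 0.84 (SE 0.05) on the log2 scale. Both libraries of each group lay close together for both chains. Col3a1, the single chain of type III collagen, moved the other way by a small amount, from 40735 and 40056 counts to 49323 and 50435. Its log2 fold change was 0.19 ± 0.05 (adjusted p = 0.00144, edgeR). The call was lost without shNr4a3 replicate 1, where the value was 0.20 (adjusted p = 0.101), and without shNr4a3 replicate 2, where it was 0.19 (adjusted p = 0.109).

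Type V collagen sits at the core of type I fibrils and limits their width. Its abundant chains fell less than those of type I. Col5a2 went from 151677 and 155612 counts to 117528 and 116676 (log2 fold change -0.50 ± 0.05; adjusted p = 1.10e-10, edgeR), and Col5a1 from 65301 and 63611 to 54498 and 55647 (-0.34 ± 0.05; adjusted p = 8.09e-07, edgeR). The groups did not overlap for either, as in 77.2% of all tested genes. Col5a3, the rarest chain of the type, stood at 163 and 179 counts against 261 and 195 and did not pass (0.31 ± 0.21; adjusted p = 0.211, edgeR).

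Type XI collagen, which has the same place in cartilage fibrils, gave the widest split between partner chains. Col11a1 rose from 4010 and 3991 counts in shNT to 9720 and 9898 in shNr4a3, a 2.27-fold rise (1.18 ± 0.06 on the log2 scale; adjusted p = 3.76e-17, edgeR). Col11a2 fell from 614 and 753 counts to 351 and 409 (-0.96 ± 0.13; adjusted p = 3.50e-07, edgeR). So the partner chains moved in opposite directions. The groups overlapped for neither chain, as in 77.2% of all tested genes, which adds no support to the 2 calls. Of the other fibrillar chains, Col27a1, a minor fibrillar collagen of cartilage, fell by 0.57 (SE 0.16, adjusted p = 0.00258, edgeR). It had 394 and 400 counts against 301 and 277, and lost its call without shNr4a3 replicate 2, where the value was -0.49. Col24a1 had 8 to 15 counts in any library and did not pass (-0.35 ± 0.76; adjusted p = 0.717, edgeR).

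The stretches before the RefSeq starts of Col11a1 and Col11a2 are shown because these partner chains moved in opposite directions, and that of Col15a1 because it had the largest fall. Each comes from RefSeq on GRCm38.p6, 5′ to 3′ on the gene's own strand, here the plus strand for all 3: Col11a1 chr3:114030290-114030539, Col11a2 chr17:34038888-34039137 and Col15a1 chr4:47207762-47208011. Capitals mark matches on either strand to 3 common promoter motifs. The TATA box was searched as the letters TATAAA. The CCAAT box was searched as the letters of its name. The GC box was searched as GGGCGG.
Col11a1: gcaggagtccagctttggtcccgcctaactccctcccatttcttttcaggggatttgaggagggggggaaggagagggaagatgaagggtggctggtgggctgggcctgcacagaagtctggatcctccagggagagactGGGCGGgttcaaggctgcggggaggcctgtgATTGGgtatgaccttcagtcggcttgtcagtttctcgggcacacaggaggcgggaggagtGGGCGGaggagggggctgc
Col11a2: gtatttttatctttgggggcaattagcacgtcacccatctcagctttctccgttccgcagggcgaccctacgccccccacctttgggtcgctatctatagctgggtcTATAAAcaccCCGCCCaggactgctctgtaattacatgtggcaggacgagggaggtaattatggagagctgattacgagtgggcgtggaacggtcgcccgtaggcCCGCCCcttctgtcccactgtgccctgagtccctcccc
Col15a1: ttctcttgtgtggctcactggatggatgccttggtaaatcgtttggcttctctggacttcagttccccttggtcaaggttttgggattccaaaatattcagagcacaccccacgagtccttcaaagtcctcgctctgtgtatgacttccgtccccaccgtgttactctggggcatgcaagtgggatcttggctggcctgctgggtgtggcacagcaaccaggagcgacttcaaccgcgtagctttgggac
The Col11a1 stretch holds 2 GC boxes and a CCAAT box, the Col11a2 stretch a TATA box and 2 GC boxes, and the Col15a1 stretch none of these letters. The GC box was also present before 16 of the 27 chains with a RefSeq window, against 32.7% of all 32851 windows in that table, each searched over the 250 bases before the start. The CCAAT box was present in 10 of 27 against 33.8% of windows and the TATA box in 4 of 27 against 12.4%. The letters AAAGGTCA, known as the NBRE to which NR4A receptors bind, stood on either strand before 2 of 27, Col23a1 and Col24a1, against 1.34% of windows. Both are rare, with 4 to 30 counts for Col23a1 and 8 to 15 for Col24a1 in any library. The 7 chains without a window were not searched for any of these letters: Col1a1, Col4a3, Col5a2, Col9a3, Col12a1, Col14a1 and Col26a1. None of these letter strings lies within another, and a match describes the letters, not binding.

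Type IV collagen is built from 6 genes that lie in 3 pairs, each pair head to head with starts close together. Col4a1 and Col4a2 fell modestly, Col4a3 and Col4a4 fell more, and Col4a5 and Col4a6 did not pass. Col4a1 and Col4a2, the chains of the common basement membrane network, lie on chromosome 8 (GRCm38, 11198423 to 11312826 and 11312805 to 11449287) and share 22 bases at their starts. The counts of Col4a1 were 456389 and 441041 in the controls and 341093 and 354306 under knockdown (log2 fold change -0.48 ± 0.05; adjusted p = 3.04e-10, edgeR). Col4a2 had 286934 and 282192 against 198081 and 205157 (-0.61 ± 0.05; adjusted p = 1.31e-12, edgeR). The groups did not overlap for either gene, as in 77.2% of all tested genes.

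Col4a3 and Col4a4 encode chains best known from the filtering membrane of the kidney. They lie on chromosome 1 (82586921 to 82722059 and 82448423 to 82586849) with 71 bases between their annotated starts. Col4a3 fell from 2260 and 2242 counts in shNT to 1134 and 1183 in shNr4a3 (log2 fold change -1.07 ± 0.08; adjusted p = 1.35e-12, edgeR), and Col4a4 from 2810 and 2862 to 1053 and 1193 (-1.45 ± 0.08; adjusted p = 5.62e-16, edgeR). Their levels were 2.10-fold and 2.73-fold lower, against 1.39-fold and 1.52-fold for Col4a1 and Col4a2. Exons of Col4a3 share 563 bases with an unlisted transcript on the other strand, C430014B12Rik. On the X chromosome, Col4a5 (141475385 to 141689234) and Col4a6 (141165403 to 141474076) start 1308 bases apart. The libraries held 30923 and 32353 counts of Col4a5 in the controls against 33524 and 33650, and its log2 fold change of -0.02 ± 0.05 did not pass (adjusted p = 0.704, edgeR). Col4a6 had 1438 and 1371 against 1545 and 1615, and 0.06 ± 0.09 did not pass either (adjusted p = 0.586, edgeR). With library totals as the only scaling Col4a5 turned to 0.0889 and did not pass. Without shNT replicate 2, Col4a6 turned to -0.00102.

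Stretches between the starts of the latter pairs are shown because 1 pair fell and the other did not pass. They are from RefSeq on GRCm38.p6: Col4a4 chr1:82586850-82586920 on the minus strand, which is all 71 bases between the annotated starts of Col4a4 and Col4a3, Col4a6 chrX:141474077-141474326 on the minus strand, and Col4a5 chrX:141475169-141475384 on the plus strand, which ends 34 bases before the RefSeq start. The Col4a6 and Col4a5 stretches, of 250 and 216 bases, cover the ends of the 1308 bases between those genes and not the middle. They run 5′ to 3′ on the named gene's strand, with the same capitals as above. The corresponding bases of Col4a1 and Col4a2 lie inside annotated exons and are not printed.
Col4a4: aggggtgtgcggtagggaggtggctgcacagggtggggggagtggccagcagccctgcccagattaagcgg
Col4a6: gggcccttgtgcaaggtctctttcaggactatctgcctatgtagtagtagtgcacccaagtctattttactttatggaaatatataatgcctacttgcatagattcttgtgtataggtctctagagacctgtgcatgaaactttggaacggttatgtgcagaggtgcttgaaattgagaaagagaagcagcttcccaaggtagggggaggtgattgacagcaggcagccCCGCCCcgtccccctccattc
Col4a5: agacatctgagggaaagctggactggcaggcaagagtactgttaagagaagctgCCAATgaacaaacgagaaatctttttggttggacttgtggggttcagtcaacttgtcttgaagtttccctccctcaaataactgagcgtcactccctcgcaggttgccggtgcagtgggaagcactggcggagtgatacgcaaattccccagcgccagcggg
The Col4a4 stretch holds none of the 4 searched motifs, the Col4a6 stretch 1 GC box and the Col4a5 stretch 1 CCAAT box. The window of 250 bases searched for Col4a5 reaches to its RefSeq start and also holds a GC box, which is not in the printed stretch. Col3a1 and Col5a2, tail to tail on chromosome 1 with 24614 bases between them, had log2 fold changes of 0.19 and -0.50.

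**Figure D3:**
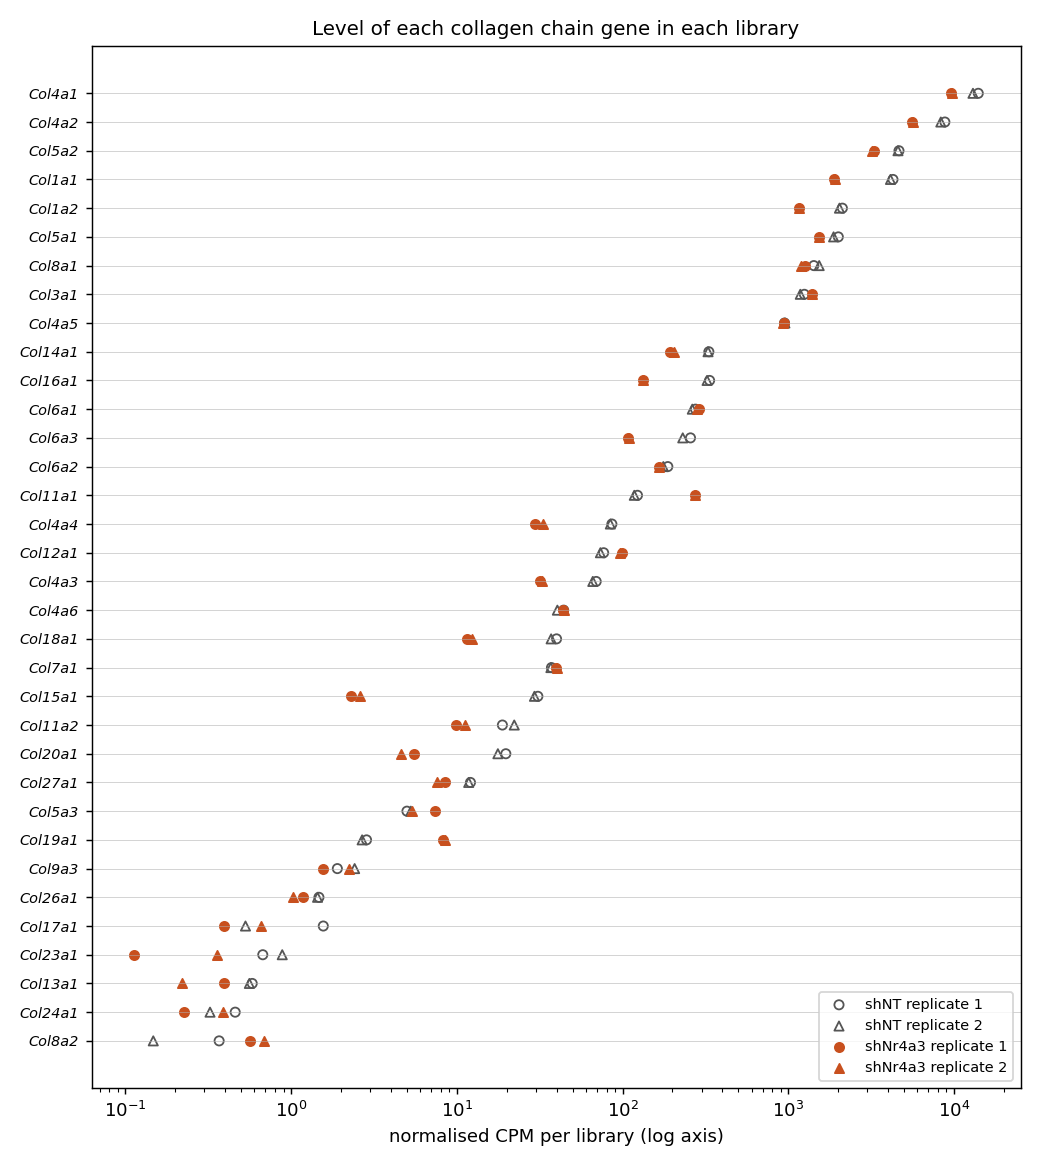
Normalised CPM (x axis, log scale) of each of the 34 collagen chain genes (y axis, ordered by the shNT mean) in every library; open grey symbols are shNT, filled orange ones shNr4a3, circles replicate 1 and triangles replicate 2. Col8a2 has the lowest and Col4a1 the highest mean level in shNT; Col11a1 and Col19a1 lie to the right of shNT and Col15a1 to the left, from 30.8 and 29.4 to 2.31 and 2.62.

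Col15a1 and Col18a1, the multiplexins, both fell, Col15a1 by more than any other chain. Multiplexins are collagens of basement membrane zones that carry heparan or chondroitin sulphate chains, and the end of the Col18a1 product is released as endostatin. Col15a1 (chromosome 4, 47208161 to 47313167) dropped from 1005 and 997 counts in the controls to 82 and 95. Its log2 fold change was -3.61 ± 0.15 (adjusted p = 2.98e-19, edgeR), a 12.2-fold lower level, and it ran from -3.70 to -3.50 over the alternatives tried. Col18a1 had 1303 and 1257 counts against 410 and 447 (-1.69 ± 0.11; adjusted p = 1.57e-14, edgeR). The libraries of a group lay close together for both. In the same libraries the median log2 fold change was -1.96 over 10 endothelial markers and -2.90 over 12 epicardial and mesothelial markers, whose summed levels are given above. It was -2.10 for Schwann and glial, -1.09 for macrophage and leukocyte and -0.83 for smooth muscle and pericyte markers. For cardiomyocyte markers it was -0.25 and for fibroblast markers 0.06. A link between any of these lists and the multiplexins was not tested.

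FACIT chains, which lie on the surface of fibrils, went in both directions: 3 fell, 2 rose and 1 did not pass. Of all tested genes 55.5% were called in either direction. Col16a1 fell from 10923 and 10970 counts in shNT to 4727 and 4830 in shNr4a3 (log2 fold change -1.31 ± 0.06; adjusted p = 1.61e-18, edgeR). Col14a1, which binds fibrils through decorin, fell from 10810 and 11118 to 6911 and 7361 (-0.73 ± 0.06; adjusted p = 1.63e-12, edgeR), and Col20a1 from 644 and 600 to 195 and 167 (-1.89 ± 0.16; adjusted p = 5.85e-12, edgeR). Against these, Col12a1, a chain of tissues under tension, rose from 2507 and 2493 counts to 3521 and 3506 (0.38 ± 0.07; adjusted p = 2.74e-05, edgeR). Col19a1, a minor chain of basement membrane zones, rose 3.03-fold, from 93 and 91 counts to 294 and 308 (1.60 ± 0.21; adjusted p = 1.06e-07, edgeR). In all 5 the groups did not overlap, as in 77.2% of all tested genes. Since these 5 are the called ones, this adds no support of its own. Col9a3, with 62 and 82 counts against 55 and 81, overlapped between groups (-0.19 ± 0.35; adjusted p = 0.662, edgeR), and it shares 234 exon bases with Tcfl5 on the other strand.

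Type VI collagen forms beaded filaments around cells from an equal mix of its main chains, and 1 of its 3 listed chains fell. Col6a3 fell from 8376 and 7826 counts in shNT to 3807 and 3990 in shNr4a3 (log2 fold change -1.17 ± 0.06; adjusted p = 2.56e-16, edgeR). Col6a1 had 8978 and 8936 against 10271 and 10240, and its log2 fold change of 0.08 ± 0.06 was not called (adjusted p = 0.207, edgeR). It was called with library totals as the only scaling (0.20, adjusted p = 0.00388) and without shNT replicate 1 (0.12, adjusted p = 0.00400). Col6a2 had 6113 and 5975 against 5876 and 5990, and -0.14 ± 0.06 did not pass (adjusted p = 0.0523, edgeR). That value is near the threshold: Col6a2 passed under 4 alternatives, with an adjusted p from 2.34e-04 without shNT replicate 2 to 0.0495 with upper-quartile factors.

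The remaining chains were either little changed or rare. Col8a1, a network collagen of vessel walls and the cornea, fell from 46461 and 52083 counts to 44549 and 43314 (log2 fold change -0.27 ± 0.05; adjusted p = 3.36e-05, edgeR), a normalised level of 1425 and 1535 CPM against 1253 and 1194. Its partner Col8a2 had 12 and 5 counts against 20 and 25 and did not pass. Col7a1, the anchoring fibril chain of skin, had 1214 and 1253 counts against 1417 and 1461 (0.11 ± 0.09; adjusted p = 0.288, edgeR), and was called with library totals as the only scaling (0.22, adjusted p = 0.0289). Of the transmembrane chains, Col23a1 was called lower at 22 and 30 counts against 4 and 13 (-1.71 ± 0.70; adjusted p = 0.0384, edgeR). That call was lost in DESeq2 (adjusted p = 0.0887) and when library totals were the only scaling (adjusted p = 0.0552, edgeR). It was also lost without shNr4a3 replicate 1 (-1.11, adjusted p = 0.278), without shNT replicate 1 (-1.89, adjusted p = 0.061) and without shNT replicate 2 (-1.50, adjusted p = 0.174). Col13a1 and Col17a1 had at most 51 counts in any library and did not pass; Col17a1 passed without shNT replicate 2 (-1.56, adjusted p = 0.0405). Col26a1 had 37 to 49 counts and did not pass.

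The balance between chains of the same type, called partner chains here, did not overlap between the groups for 7 of 8 pairs. Which chains join in these cells was not measured. Of all tested genes, taken singly, 77.2% did not overlap either. No such share was computed for ratios of other genes, so the count of pairs has no background of its own. Levels of different genes are compared here as counts per kilobase of the GENCODE M21 transcript with the longest coding sequence, since the deposited FPKM could not serve, as set out in the next paragraph; the change of a ratio between groups does not depend on the length. On this scale, an RPKM over the listed counts, the mean level in shNT was 1962 for Col4a1, 1276 for Col4a2, 682 for Col1a1, 671 for Col5a2 and 373 for Col1a2. In shNr4a3 the same means were 1522, 905, 332, 512 and 225. Col5a2 lay just below Col1a1 in both shNT libraries (672 and 669 against 691 and 673) and above it in both shNr4a3 libraries (518 and 506 against 328 and 335). The order in shNT depends on the length used: per kilobase of coding sequence, Col5a2 was above Col1a1 in both shNT libraries too (991 and 987 against 940 and 916). Col8a1, Col5a1, Col3a1 and Col4a5 followed in shNT at 279, 222, 210 and 140, and in shNr4a3 Col3a1 stood at 260, Col8a1 at 249, Col5a1 at 190 and Col4a5 at 149. The Col1a1 to Col1a2 ratio was 1.82 and 1.83 in shNT and 1.47 and 1.48 in shNr4a3, a log2 change of -0.31. Col4a1 to Col4a2 moved slightly up, from 1.55 and 1.52 to 1.68 and 1.68. Col4a3 to Col4a4 rose from 0.950 and 0.926 to 1.27 and 1.17. Among the 8 ratios between partner chains, the shifts were largest for Col11a1 to Col11a2, from 4.59 and 3.73 to 19.5 and 17.0 (log2 change 2.14), and for Col6a3 to Col6a1, from 0.378 and 0.355 to 0.150 and 0.158 (log2 change -1.25). Col5a1 to Col5a2 had a log2 change of 0.16 and Col6a1 to Col6a2 of 0.22. Col4a5 to Col4a6, at 21.9 and 24.0 against 22.1 and 21.2, was the 1 ratio of the 10 whose groups overlapped. Between types, Col3a1 to Col1a1 went from 0.311 and 0.304 to 0.788 and 0.777, a 2.54-fold rise, and Col5a1 to Col1a1 from 0.330 and 0.320 to 0.576 and 0.567. Each of the 9 ratios without overlap gave an exact two-sided permutation p of 0.333, the smallest that 2 against 2 libraries allow, and Col4a5 to Col4a6 gave 0.667. Col8a1 to Col8a2 was left out because Col8a2 fell under 10 counts in 1 library.

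**Figure D4:**
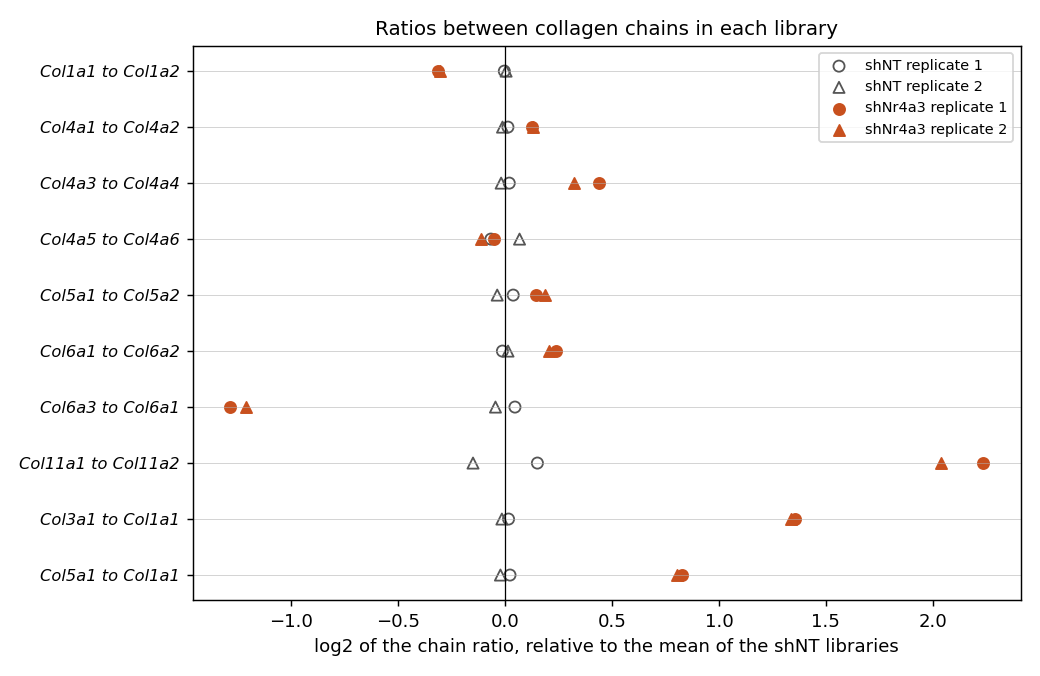
Log2 of the ratio between the counts of paired chains in each library (x axis, relative to the mean of the shNT libraries) for 10 chain pairs (y axis); open grey symbols are shNT, filled orange ones shNr4a3. The shNr4a3 points of Col11a1 to Col11a2 lie about 2.14 above the shNT mean and those of Col6a3 to Col6a1 about 1.25 below it, while Col4a5 to Col4a6 overlaps.

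The deposited FPKM values cannot give such ratios. Dividing the counts by them returned a whole-number gene length for every nonzero value, within 0.01 bases, but these lengths bore no relation to the annotated ones: across 12706 genes with a union exon length in GENCODE M21 the Pearson r of log2 lengths was -0.0048 and Spearman rho -0.0062, as a description across genes. The length was within 10% of the annotation for 8.38% of genes and for 5 of the 34 chains. For Col4a2 it was 2228 bases against 6619 annotated, for Col11a2 1262 against 6874 and for Col8a2 14645 against 4489. By deposited FPKM the Col4a1 to Col4a2 ratio in shNT would be 0.50, against 1.54 with the annotated transcript lengths, and Col1a1 to Col1a2 would be 4.80 against 1.83. Annotated lengths are not exact either: with the union of all exons Col1a1 to Col1a2 would be 3.84, and with coding length 1.91. Fold changes of a single gene between libraries are not touched by this.

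**Figure D5:**
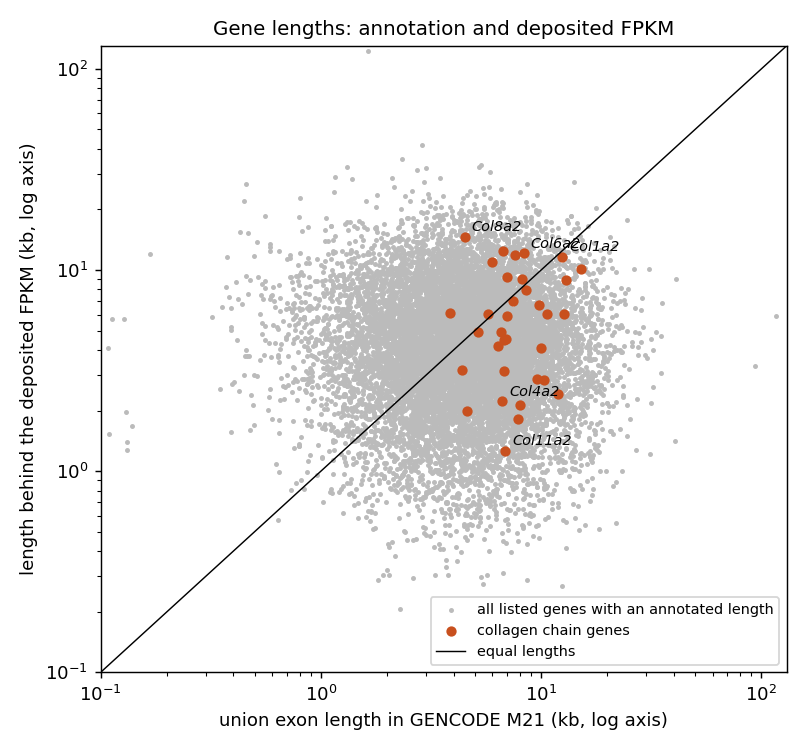
Gene length behind the deposited FPKM (y axis, kb, log scale) against union exon length in GENCODE M21 (x axis, kb, log scale) for 12706 listed genes in grey and the 34 collagen chain genes in orange; the line marks equal lengths. The cloud does not follow the line (Pearson r = -0.0048), and 5 of the 34 chains lie within 10% of it.

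Genes that make, crosslink, bind or degrade collagen moved in both directions. Their counts are to be read against the 27.9% of all tested genes that fell and the 27.6% that rose, 55.5% together. Over the 5 lists 17 genes rose and 23 fell, and with library totals as the only scaling 22 rose and 17 fell, so the direction held by more genes depends on the scaling. Of 22 genes for the modification and folding of chains 10 fell and 5 rose, 68.2% together (median -0.10 on the log2 scale). P4hb, the shared subunit of prolyl 4-hydroxylase, fell from 38772 and 38439 counts to 20085 and 20676 (-1.03 ± 0.05; adjusted p = 2.52e-17, edgeR), and P3h4, a partner of prolyl and lysyl hydroxylation, fell by 1.15 (SE 0.07). P4ha3, a catalytic subunit of the same enzyme, rose from 626 and 666 counts to 2202 and 2311 (1.69 ± 0.09). Of 12 tested processing and crosslinking genes 6 rose and 3 fell, 75.0% together (median 0.13). Loxl1, a lysyl oxidase that crosslinks fibres, fell by 0.77 (SE 0.06) and Tgm2, transglutaminase, by 0.62 (SE 0.08), while Pcolce, an enhancer of procollagen cleavage, rose by 0.44 (SE 0.05).

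Among 9 tested collagen receptors 4 fell and 1 rose (median -0.16), and the 55.6% called was near the background. Mrc2, the uptake receptor Endo180, fell by 0.72 (SE 0.05), Itgb1, the shared integrin beta 1 subunit, fell by 0.16 (SE 0.05), and Itga2 rose from 92 and 84 counts to 322 and 312. Of 7 tested breakdown genes 3 rose and 1 fell, 57.1% together and so near the background (median -0.11): Mmp14, a membrane-bound collagenase, fell from 39156 and 36501 counts to 17717 and 19068 (-1.15 ± 0.06), while Mmp16 rose by 0.91 (SE 0.09) and Ctsk, cathepsin K, by 0.63 (SE 0.08). Of 7 fibril partners 5 fell and 2 rose (median -0.59). Thbs1 fell by 0.70 (SE 0.05), Bgn, biglycan, by 0.59 (SE 0.05) and Fmod, fibromodulin, by 1.19 (SE 0.12). Among the genes named from these 5 lists the highest adjusted p was 0.00489, for Itgb1 (edgeR).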

How the data were processed

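RNA of 4 libraries was measured. Per the labels' protocols, ribosomal RNA was removed, stranded libraries were made and both ends were read; polyA RNA is named as the molecule. The submitters' processing notes list mm10, SAMtools, Subread 1.5.1, featureCounts and Trimmomatic 0.36. No source used here gives the aligner or how strand was handled in counting. Whether reads on opposite strands of overlapping exons were counted apart is therefore not known. Raw counts by gene are in the deposited table, per the file headers and the whole-number values, with no gene under a mean count of 10.25. The deposited FPKM values are the authors' own and were first meant to give chain ratios and the summed collagen level; because of the lengths behind them, counts and GENCODE M21 lengths were used instead. The deposited log2 fold changes, scores (the test statistic), p-values and mean signal are the authors'. Log2 fold changes in the authors' deposited table differed from those given here by at most 0.0206 for the 34 chains. That table gives 13 chains an adjusted p under 0.05, all among the 22 called here. Col3a1, Col4a1, Col4a2, Col5a1, Col5a2, Col8a1, Col12a1, Col23a1 and Col27a1 are called here and not there. The 2 sets of calls come from unlike tests. For Col4a1 the authors give -0.484 with an SE of 0.0526, yet p = 0.619 (authors' test), which is no test against a change of 0. A chain not called there is therefore not shown to be unchanged.

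Counts were tested under R 4.3.3 with the robust quasi-likelihood test of edgeR 4.0.16, using TMM factors, filterByExpr and group as the only term. The filter removed 32 genes and left 13160. The standard error is the size of the log2 fold change divided by the square root of F. Values per library and ratios were compared by exact permutation. Positions and lengths were taken from GENCODE M21 (GRCm38), which matched 96.3% of listed symbols; promoter windows are from RefSeq. Of 128 members of the related and marker lists 113 matched, 1 of them, Ctage5, as Mia2. Every chain is described, and from each related list up to 3 members with the smallest p are named. The members and lists were chosen with earlier results of these data known. The common biological coefficient of variation was 6.57%, and replicates differed by more than sampling noise (chi-square per gene 11.2 in shNT and 4 in shNr4a3). In simulated tables of 13160 genes, the test recovered 62% of true log2 changes of size 0.5 and 83% of size 1. Recovery with as large a share of genes changed as was called in these libraries, 55.5%, was not tested. Alternatives used DESeq2 1.42.0 and limma 3.58.1 (voom), other factors and filters, a length trend, a replicate block and each library left out.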

Additional observations from a re-analysis of the deposited data

How the results depend on the processing

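Over 500 values of the 34 chains under 15 alternatives, 476 kept their direction and their side of the threshold, 13 lost a call, 8 gained one and 3 reversed; 15 of the 22 called chains kept theirs throughout. The reversed values were Col4a5 with library totals only (0.0889), Col4a6 without shNT replicate 2 (-0.00102, in a range up to 0.125 with a library left out) and Col9a3 without shNr4a3 replicate 1 (0.0481, in a range down to -0.480), none called in either form; the cause was not tested. A minimum change of 0.5 on the log2 scale left 2 higher chains (and 15 lower), 1661 higher and 2177 lower genes in all, and 10 higher and 12 lower genes in the related lists, by construction of the rule. With library totals only, the related lists had 22 higher and 17 lower genes in place of 17 and 23. With each library left out in turn, 3 to 5 chains were higher and 17 to 19 lower, and 2665 to 3848 genes were higher and 2862 to 3758 lower. The summed collagen share changed by -0.44 to -0.38 on the log2 scale. Leaving out the 20 most abundant and the mitochondrial genes removed 4 chains from the table; 14 of the other 30 were then lower. DESeq2 called 4 chains higher and 17 lower.

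Replicate numbers are shared between the groups, but same-numbered libraries did not deviate together (r = -0.0316 across genes). With the number as a replicate block, 4 chains were higher and 18 lower, and 3552 and 3599 of all genes. The coding length of RefSeq proteins was not run as a length for the ratios, since no protein table was used here; the GENCODE lengths added after seeing the data stand in the report. Low counts limit Col8a2, Col9a3, Col13a1, Col17a1, Col23a1, Col24a1 and Col26a1. With 2 libraries per group, totals and ratios cannot reach a p below 0.333.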
